A study of Homo sapiens with 16 samples.

Results

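The tripartite-motif (TRIM) genes were taken as every gene whose only symbol in the platform annotation is TRIM followed by a number. This gave 33 of the 11963 genes that the array measures with a probe set of 1 symbol, and 63 of its 22215 probe sets without controls. Of the 33 members, 20 had 1 probe set and 13 had several, up to 5. All 33 gene IDs were found in RefSeq under the same symbol. A further 4 probe sets list a TRIM symbol beside other symbols and were not used.

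Expression was measured on 16 Affymetrix U133 arrays, 2 in each of 8 groups, all of breast cancer cell lines per the labels. The invasive lines MDA-MB-231 and LM24175, a derivative of MDA-MB-231 selected for lung metastasis, carried by stable infection either a RECK construct with constitutive expression or an empty vector. The poorly invasive lines Hs343T and Hs606T were transfected with an siRNA against RECK (siRECK) or with a scrambled siRNA (siSCR). RECK encodes a membrane-anchored inhibitor of matrix metalloproteinases. The sources used here give neither the time after transfection nor the number of clones behind each infected line. Whether arrays of the same group came from different cultures is not stated either, so the spread behind each p-value may be a technical one.

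TRIM proteins carry a RING finger, 1 or more B-boxes and a coiled coil, and most of them are ubiquitin ligases. A number of them restrict viruses or tune the RIG-I-like receptor pathway, in which viral RNA sensed by RIG-I or MDA5 leads through the adaptor MAVS to interferon beta, and several of these are themselves induced by interferon. Others act as chromatin cofactors, bind microtubules in neurons, or control growth factor signalling, p53 and autophagy.

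RECK itself went against the siRNA labels. Its level on the log2 scale was 11.31 and 11.24 on the Hs343T arrays labelled siRECK, against 6.07 and 5.52 on those labelled siSCR, a 44.5-fold higher level (95% interval 35.1 to 56.6; adjusted p = 1.17e-10). In Hs606T it was 11.17 and 11.02 on the arrays labelled siRECK, against 8.74 and 8.65 on those labelled siSCR, 5.29-fold higher (4.16 to 6.71; adjusted p = 5.62e-06). The arms are therefore called by their labels, and each direction below is that of the labels. In MDA-MB-231 RECK read 7.78 and 7.80 with the construct and 7.74 and 7.78 with empty vector (adjusted p = 0.963), and in LM24175 it read 7.39 and 7.76 with the construct and 7.96 and 8.04 with empty vector (adjusted p = 0.155). The probe set's place in the transcript relative to the construct was not examined.

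The medians of the 16 arrays ran from 6.42 to 6.57, and arrays of the same group correlated with r of 0.994 to 0.998. The first MDA-MB-231 empty-vector array and the first LM24175 RECK construct array deviated from their group means together (r = 0.482 across genes). The 10 mesenchymal markers had a median level of 4.44 to 6.06 in the groups of MDA-MB-231 and LM24175 and of 12.42 to 12.83 in those of Hs343T and Hs606T. The 6 epithelial markers had a median of 9.05 to 9.69 in MDA-MB-231 and LM24175 and of 6.13 to 7.07 in Hs343T and Hs606T, where 2 of the 6, EPCAM and CDH1, lay below the lower quartile of the genes. The labels call all 4 lines breast cancer lines, and CDH1 lay below that quartile in all 8 groups. Summed over the 6 genes, the epithelial levels came to 38.8 and 38.7 on the Hs343T siRECK arrays, against 40.4 and 41.6 on the siSCR arrays, and to 42.5 and 42.8 on the Hs606T siRECK arrays, against 40.7 and 40.7 on the siSCR arrays. Within that list the keratins KRT8, KRT18 and KRT19 were lower in Hs343T, where 17.5% of all genes were. KRT18 was higher in Hs606T, where 0.853% of all genes were. The part of these keratins in the TRIM differences was not tested. The 12 leukocyte markers had medians between 4.59 and 4.95 in all groups. None was higher with siRECK in either line, and 1 was lower in Hs343T, where 17.5% of all genes were.

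In Hs343T 7 of the 9 antiviral members rose, by up to 13.8-fold, while TRIM15 and TRIM31 did not pass. The 5 members that fell were TRIM2, TRIM16, TRIM37, TRIM46 and TRIM32. Of the 33 genes, 10 were higher and 5 lower on the arrays labelled siRECK at a limma adjusted p under 0.05, which is 45.5% of the family. Over all genes 29.4% passed in that comparison, 12% higher and 17.5% lower. At least 1.5-fold as well, 8 were higher and 3 lower, against 15.2% of all genes. The median log2 difference was 0.11 over the TRIM genes and -0.06 over all genes. In Hs606T 3 members were higher and none was lower, 9.09% of the family, where 1.24% of all genes passed (0.853% higher and 0.385% lower). The median difference there was 0.05 over the TRIM genes and 0 over all genes. By an unadjusted p under 0.05, 5 of the 33 members differed in Hs606T, where 11.4% of all genes did.

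**Figure D1:**
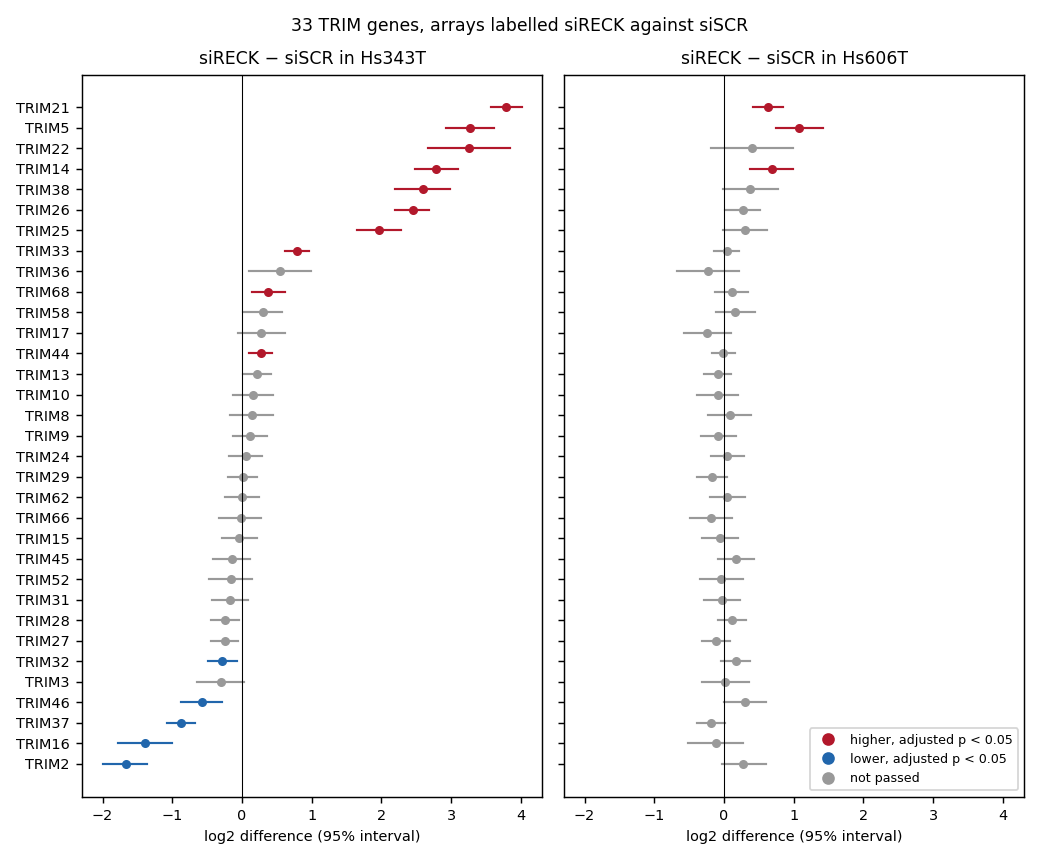
Log2 difference between arrays labelled siRECK and arrays labelled siSCR for each of the 33 TRIM genes in Hs343T (left) and Hs606T (right), with its 95% interval; genes are ordered by the Hs343T difference and coloured by the limma call. The upper 7 genes on the left lie between 1.97 and 3.79, and 3 of them, TRIM5, TRIM14 and TRIM21, are also coloured as higher on the right.

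TRIM21, the cytosolic antibody receptor that directs antibody-coated virus to degradation, had the largest difference of the family in Hs343T. Its log2 level was 10.23 and 10.39 on the arrays labelled siRECK, against 6.53 and 6.52 on those labelled siSCR, 13.8-fold higher (95% interval 11.9 to 16.1; adjusted p = 5.32e-11). TRIM5, which recognises retroviral capsids, read 11.01 and 11.07 with siRECK and 7.85 and 7.68 with siSCR, 9.66-fold higher (7.63 to 12.2; adjusted p = 1.07e-08). For both genes the SD within a group was at most 0.13, far less than the gap between the groups. These are levels in bulk RNA, so a change in the share of cells that express a gene and a change in its RNA per cell cannot be told apart.

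TRIM22, an interferon-induced antiviral ligase, read 12.94 and 12.98 on the Hs343T siRECK arrays, against 9.78 and 9.63 on the siSCR arrays, a log2 difference of 3.25 (SE 0.27; adjusted p = 1.71e-06). TRIM14, which lacks the RING finger and serves as an adaptor of MAVS at mitochondria, read 11.60 and 11.63 with siRECK and 8.95 and 8.70 with siSCR, 6.93-fold higher (5.59 to 8.57; adjusted p = 1.95e-08). The groups did not overlap for either gene, as for 23 of the 33 members in Hs343T. Separation was not counted over all genes, so it does not mark these genes out.

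TRIM38, which limits Toll-like and RIG-I-like receptor signalling, read 10.85 on both siRECK arrays, against 8.16 and 8.38 on the siSCR arrays of Hs343T, 6.0-fold higher (4.57 to 7.88; adjusted p = 3.85e-07). TRIM26, a ligase of nuclear IRF3, read 10.18 and 10.23 with siRECK and 7.88 and 7.64 with siSCR, 5.45-fold higher (4.59 to 6.47; adjusted p = 8.49e-09). TRIM25, the ligase that activates RIG-I, read 9.01 and 8.49 with siRECK and 6.84 and 6.73 with siSCR, 3.91-fold higher (3.14 to 4.87; adjusted p = 6.37e-07). These 7 genes are all the antiviral and innate sensing members that passed, out of 9 measured, and the list had a median log2 difference of 2.59. The other antiviral members, TRIM15 and TRIM31, had differences of -0.04 and -0.17 and did not pass (adjusted p = 0.847 and 0.338). All 7 calls held under every alternative setting and with each array left out.

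**Figure D2:**
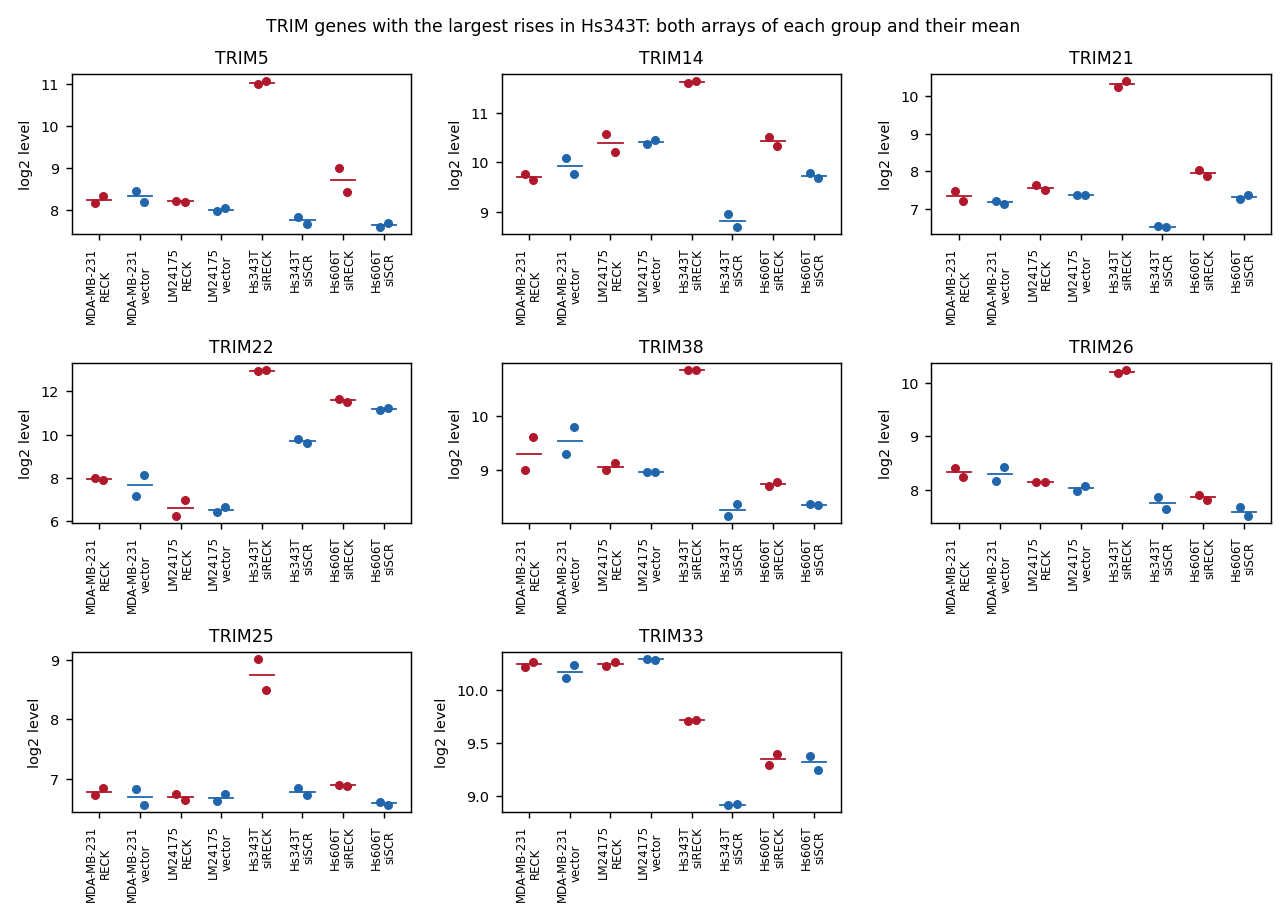
Log2 level of 8 TRIM genes on both arrays of each group (points) and the group mean (bars); red points are RECK construct or siRECK arrays, blue points empty-vector or siSCR arrays, and each panel has its own scale. In every panel the 2 Hs343T siRECK arrays lie above the 2 Hs343T siSCR arrays. In every panel but that of TRIM33 the Hs606T siRECK arrays also lie above the siSCR arrays, a difference that passed for TRIM5, TRIM14 and TRIM21. Of the 33 members, 23 had groups that did not overlap in Hs343T and 17 in Hs606T, in either direction. The share over all genes was not counted.

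The promoters of 25 of the 33 members are in the RefSeq promoter table (GRCh38.p14, from 250 bases before to 50 after the start). They were searched on both strands for the core of the interferon-stimulated response element, TTTCNNTTTC, which factors of the IRF family bind. It was found in 3.57% of 35116 windows of that length. Among the members higher in Hs343T, 5 of the 9 with a promoter in the table held it, and among all other members 2 of 16. The 9 had 9 windows and the 16 had 28, of which 2 held it. Shares of members are thus not on the same footing as the share of windows. TRIM25, TRIM38, TRIM33 and TRIM68 also rose in Hs343T and held no match, and TRIM22 had no promoter in the table. The sequences that hold it are shown for members that rose and members that fell. Capitals mark the matched letters, read as the reverse complement where the match is on the other strand. In TRIM21 and TRIM26 they mark a pair of overlapping matches. Each runs 5′ to 3′ on the gene's strand.
TRIM5 (chr11:5685075-5685134, minus strand): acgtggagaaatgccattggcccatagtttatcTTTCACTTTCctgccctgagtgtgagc
TRIM14 (chr9:98119223-98119282, minus strand): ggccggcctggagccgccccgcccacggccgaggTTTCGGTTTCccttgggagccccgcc
TRIM21 (chr11:4393663-4393692, minus strand): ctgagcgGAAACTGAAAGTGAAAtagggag
TRIM26 (chr6:30213563-30213622, minus strand): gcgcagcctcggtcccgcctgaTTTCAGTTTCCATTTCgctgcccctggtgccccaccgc
TRIM44 (chr11:35662715-35662774, plus strand): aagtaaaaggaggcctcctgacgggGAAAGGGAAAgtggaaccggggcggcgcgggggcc
TRIM2 (chr4:153151921-153151980, plus strand): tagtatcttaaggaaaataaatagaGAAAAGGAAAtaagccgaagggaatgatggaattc
TRIM16 (chr17:15682997-15683056, minus strand): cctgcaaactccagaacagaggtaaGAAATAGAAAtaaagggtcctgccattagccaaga
The match lay 27 to 18 bases before the start in TRIM5 and 26 to 17 bases before it in TRIM14. In TRIM21 the pair lay 18 to 33 bases after the start, and in TRIM26 194 to 179 bases before it. TRIM2 and TRIM16, which held the other 2 matches, were lower in Hs343T, so the letters were not found on 1 side of the responses alone. The shorter STAT element TTCNNNGAA was in 7.66% of all windows, in 0 of the 9 higher members and in 5 of the 16 others (7 of their 28 windows). A match is a description of the letters and was not tested as a binding site.

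In Hs606T 3 of these antiviral genes, TRIM5, TRIM21 and TRIM14, were the members that passed, and they were thus higher in both lines, as were 0.502% of all genes. All 3 differences were at least 1.5-fold, against 0.819% of all genes in Hs606T. TRIM5 read 9.01 and 8.45 on the arrays labelled siRECK, against 7.61 and 7.71 on those labelled siSCR, 2.11-fold higher (95% interval 1.67 to 2.67; adjusted p = 0.00482). TRIM21 read 8.03 and 7.88 with siRECK and 7.27 and 7.36 with siSCR, 1.55-fold higher (1.33 to 1.81; adjusted p = 0.0093). TRIM14 read 10.51 and 10.33 with siRECK and 9.78 and 9.69 with siSCR, 1.61-fold higher (1.30 to 1.99; adjusted p = 0.0408). The groups did not overlap for any of the 3, as for 17 of the 33 members in Hs606T, a share not counted over all genes. The siRECK arrays of TRIM5 had an SD of 0.39, against 0.07 for its siSCR arrays.

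These Hs606T calls rested on few arrays. Without the first Hs606T siSCR array none of the 3 passed (adjusted p = 0.0576 for TRIM5, 0.0994 for TRIM21 and 0.153 for TRIM14), and none passed when only the Hs606T arrays were fitted (0.167, 0.098 and 0.0929). Without the first siRECK array or the second siSCR array TRIM5 alone passed, TRIM21 then having adjusted p-values of 0.12 and 0.0546 and TRIM14 of 0.304 and 0.246. TRIM14 was also lost without the second siRECK array (0.0776), after median centring (0.0557), with the mean of its probe sets (0.0882), and without any 1 of the MDA-MB-231 construct (0.06), LM24175 empty-vector (0.0682) or Hs343T siRECK arrays (0.0644), which enter only through the shared spread and the adjustment. The direction stayed positive in each of these fits.

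The remaining antiviral members that rose in Hs343T had smaller differences in Hs606T that did not pass. TRIM22 read 11.67 and 11.53 on the Hs606T siRECK arrays, against 11.16 and 11.23 on the siSCR arrays, a difference of 0.40 (95% interval -0.18 to 0.99; adjusted p = 0.627). TRIM38 read 8.71 and 8.78 with siRECK and 8.38 and 8.36 with siSCR, a difference of 0.38 (-0.02 to 0.77; adjusted p = 0.46). For both genes the siRECK arrays lay above the siSCR arrays without overlap, by less than the test requires over all genes. In Hs606T the groups did not overlap for 17 of the 33 members, of which few passed, and the share over all genes was not counted. TRIM25 read 6.90 and 6.88 with siRECK and 6.61 and 6.56 with siSCR (difference 0.30, -0.01 to 0.62; adjusted p = 0.457). TRIM26 read 7.91 and 7.82 with siRECK and 7.68 and 7.52 with siSCR (difference 0.27, 0.02 to 0.51; adjusted p = 0.399). Of the 10 genes that rose in Hs343T, 9 had a positive difference in Hs606T, TRIM44 being the exception at -0.01, and of the 5 that fell, 2 had a negative one. Across the 33 genes the differences in the lines had r = 0.72, a description over genes, which are not independent replicates.

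The responses of both lines were compared directly as the Hs606T difference minus the Hs343T difference. In that contrast 13 TRIM genes passed (39.4%), where 20.4% of all genes did: 5 were higher and 8 lower, against 11.7% and 8.71% of all genes. At least 1.5-fold as well, 12 passed, against 14.9% of all genes. The 8 that were lower are the 7 antiviral genes and TRIM33, so each of the 3 genes higher in both lines was also higher by less in Hs606T. The contrast was -3.16 for TRIM21, -2.85 for TRIM22, -2.21 for TRIM38, -2.20 for TRIM5, -2.18 for TRIM26, -2.11 for TRIM14 and -1.66 for TRIM25, with adjusted p-values between 2.57e-08 and 1.95e-04. The control arms also differed between the lines: with siSCR, TRIM22 was 2.81-fold (1.87 to 4.21), TRIM14 1.88-fold (1.52 to 2.33) and TRIM21 1.74-fold (1.49 to 2.02) higher in Hs606T than in Hs343T, while TRIM5, TRIM25, TRIM26 and TRIM38 did not pass there.

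Among the chromatin cofactors 1 of 4 passed in Hs343T, where 29.4% of all genes did. TRIM33, which ubiquitinates SMAD4 and acts in the TGF-beta pathway, read 9.71 and 9.72 on the Hs343T siRECK arrays, against 8.92 and 8.93 on the siSCR arrays, 1.73-fold higher (1.53 to 1.95; adjusted p = 9.58e-06). In Hs606T it read 9.30 and 9.40 with siRECK and 9.38 and 9.25 with siSCR, with overlapping groups, and the responses differed by -0.75 (SE 0.11; adjusted p = 4.54e-04). TRIM28, the corepressor of KRAB zinc finger proteins, had a difference of -0.25 in Hs343T (-0.45 to -0.04; adjusted p = 0.0705) and of 0.11 in Hs606T. TRIM24 and TRIM66, its relatives, differed by 0.06 and -0.02 in Hs343T.

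Of the 11 ubiquitin ligases of growth, p53, autophagy and signalling, 2 were higher and 2 lower in Hs343T. Over all genes 12% were higher there and 17.5% lower. TRIM68, a ligase described as a coactivator of the androgen receptor, read 8.05 and 8.06 with siRECK and 7.84 and 7.52 with siSCR, 1.30-fold higher (1.10 to 1.53; adjusted p = 0.0189). TRIM44, a member without a RING finger, read 10.37 and 10.38 with siRECK and 10.10 and 10.11 with siSCR, 1.21-fold higher (1.07 to 1.35; adjusted p = 0.0177). These were the smallest rises that passed: TRIM68 no longer passed without the second siSCR array (adjusted p = 0.201) or without either siRECK array (0.0739 and 0.0797), and TRIM44 was lost whichever of the 4 Hs343T arrays was left out (0.067 to 0.0868) and after quantile normalization (0.062).

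TRIM16, which lacks a RING finger and acts in autophagy of damaged lysosomes, read 7.55 and 7.76 on the Hs343T siRECK arrays, against 9.06 and 9.04 on the siSCR arrays, 2.62-fold lower (2.00 to 3.44; adjusted p = 8.05e-05). In Hs606T it read 8.23 and 8.25 with siRECK and 8.29 and 8.43 with siSCR, a difference of -0.12 that did not pass, and the contrast of responses was 1.27 (SE 0.25; adjusted p = 0.00349). TRIM37, a ligase of peroxisomes and centrosomes, read 8.81 and 8.96 with siRECK and 9.84 and 9.68 with siSCR in Hs343T, 1.83-fold lower (1.59 to 2.12; adjusted p = 1.95e-05). In both genes the Hs343T groups were apart, as in 23 of the 33 members, a share not counted over all genes. TRIM37 also read lower on the Hs606T siRECK arrays, at 10.06 and 10.16 against 10.34 and 10.26 with siSCR, by less than passes (-0.19; adjusted p = 0.497), and its responses differed by 0.69 (adjusted p = 0.003).

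Of the 5 neuronal and cytoskeletal members, 2 fell in Hs343T and none rose, where 17.5% of all genes fell and 12% rose. TRIM2, a ligase of neurofilament light chain, had the largest fall of the family: 6.52 and 6.74 with siRECK, against 8.25 and 8.35 with siSCR, 3.18-fold lower (2.56 to 3.96; adjusted p = 2.62e-06). In Hs606T TRIM2 read 9.04 and 8.68 with siRECK and 8.47 and 8.69 with siSCR. Those groups overlapped, and the responses of the lines differed by 1.95 (SE 0.20; adjusted p = 2.70e-05). TRIM46, a microtubule organiser of the axon initial segment, read 3.99 and 3.76 with siRECK and 4.31 and 4.61 with siSCR in Hs343T, 1.5-fold lower (1.22 to 1.84; adjusted p = 0.00662), and 4.33 and 4.08 with siRECK and 3.83 and 3.97 with siSCR in Hs606T (difference 0.30; adjusted p = 0.432). Its levels were below the lower quartile of the genes on all 16 arrays. The Hs343T difference was -0.47 without the second siRECK array and -0.43 without the second siSCR array, and the call was lost in each. The contrast of responses was 0.89 (SE 0.19; adjusted p = 0.00631).

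TRIM32, a ligase mutated in limb-girdle muscular dystrophy and the 1 muscle member measured, read 8.86 and 9.09 with siRECK and 9.24 and 9.26 with siSCR in Hs343T, 1.21-fold lower (1.05 to 1.40; adjusted p = 0.0494). In Hs606T it read 9.76 and 9.77 with siRECK and 9.59 and 9.61 with siSCR, a difference of 0.17 that did not pass. It was the call nearest the threshold, and it was lost after centring the arrays on their medians (0.0904), with the Hs343T arrays alone (0.114) and without either Hs343T siSCR array (0.134 and 0.168). Without the first Hs343T siRECK array the difference was -0.16 (0.346). It was also lost without any 1 MDA-MB-231 construct, LM24175 or Hs606T array (0.0553 to 0.0686). The contrast of responses, 0.45 (adjusted p = 0.0373), was lost without the first Hs343T siRECK array (0.152), either Hs343T siSCR array (0.084 and 0.0969) or any 1 of the 4 Hs606T arrays (0.0824 to 0.101). Median centring (0.0551) and leaving out any 1 MDA-MB-231 construct (0.0512) or LM24175 empty-vector array (0.0547) ended it as well.

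**Figure D3:**
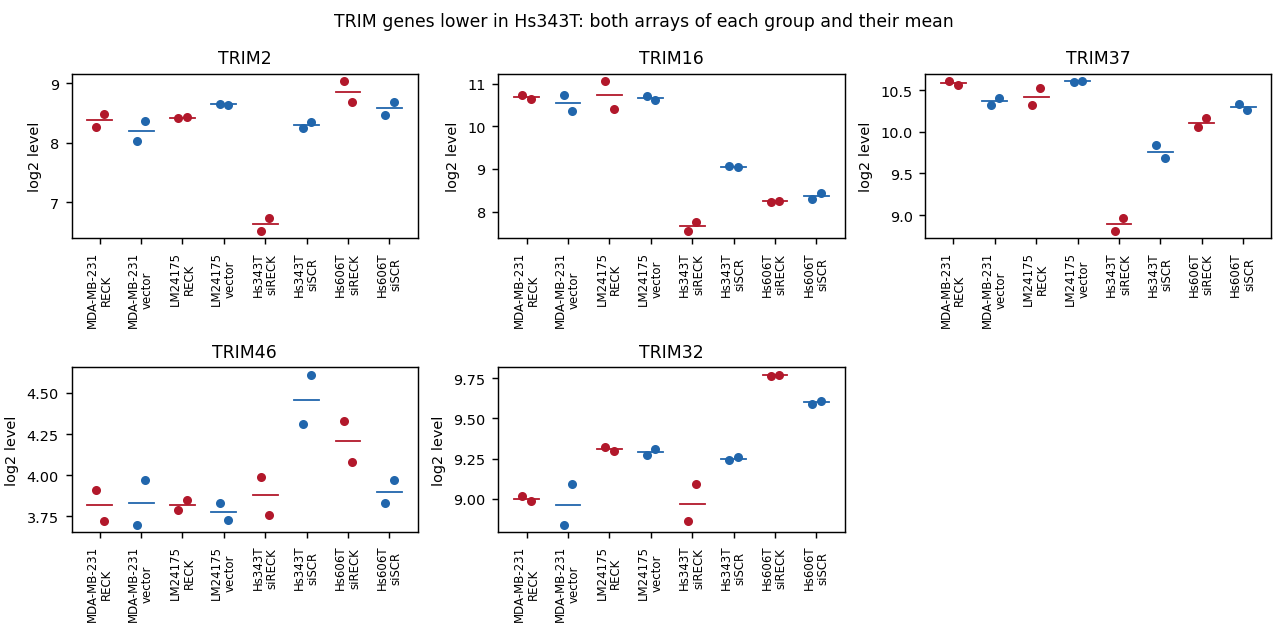
Log2 level of the 5 TRIM genes lower in Hs343T on both arrays of each group (points) and the group mean (bars), in the colours used for the higher genes; each panel has its own scale. The Hs343T siRECK arrays of TRIM2, TRIM16 and TRIM37 lie lowest of all groups in their panels. In Hs606T the siRECK arrays of TRIM32 and TRIM46 lie above the siSCR arrays, though neither difference passed.

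The other 18 members passed in neither line. Their differences lay between -0.30 and 0.54 in Hs343T and between -0.24 and 0.17 in Hs606T, and every 95% interval, in both lines, stayed within 0.99 on the log2 scale of 0. For 15 of the 18 the intervals of both lines stayed within 1.5-fold. The tightest were TRIM24, a histone reader and nuclear receptor cofactor, TRIM62, a ligase of epithelial polarity, and TRIM15. TRIM24 differed by 0.06 (-0.18 to 0.29) in Hs343T and 0.05 (-0.18 to 0.29) in Hs606T. Those values are from a probe set below the lower quartile on all arrays. Its brighter probe sets, which end in _x_at, had means of 7.13 and 7.41 with siRECK and 7.07 and 7.38 with siSCR in Hs343T. For TRIM62 the differences were 0.00 (-0.25 to 0.25) and 0.05 (-0.20 to 0.30), and for TRIM15 they were -0.04 (-0.29 to 0.22) and -0.05 (-0.31 to 0.20).

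The wide intervals among the 18 belonged to TRIM36, TRIM3 and TRIM17. TRIM36, a microtubule-associated ligase, read 4.11 and 4.34 on the Hs343T siRECK arrays and 3.70 and 3.66 on the siSCR arrays (difference 0.54, 0.10 to 0.99; adjusted p = 0.0634). TRIM27, a ligase first found fused to the RET kinase, missed the threshold by little at -0.25 (-0.45 to -0.05; adjusted p = 0.0579). The rest of the 18 were TRIM8, TRIM9, TRIM10, TRIM13, TRIM29, TRIM45, TRIM52 and TRIM58, besides TRIM28, TRIM31 and TRIM66, whose Hs343T values are given above. TRIM24, as measured by the probe set used, and TRIM66 read below the lower quartile on all 16 arrays, and TRIM9, TRIM17, TRIM31, TRIM36 and TRIM58 did so on some.

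The chromosome 6 members that lie next to each other did not share a response. TRIM26 lies within 3 genes of TRIM10 and TRIM15 in the RefSeq order, and so does TRIM31. In Hs343T TRIM26 differed by 2.45, while TRIM10, TRIM15 and TRIM31 differed by 0.16, -0.04 and -0.17 and did not pass. TRIM5 and TRIM22, on chromosome 11, each lie within 3 genes of TRIM6 and TRIM34, which were not analysed here. Both rose in Hs343T, and in Hs606T TRIM5 rose while TRIM22 did not pass.

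All 63 probe sets were also tested one by one, adjusted over the 22215. In Hs343T 16 were higher and 7 lower, where 24.7% of all probe sets passed, and in Hs606T 3 were higher and none lower, where 0.846% passed. The 3 probe sets of TRIM38 differed by 3.11, 2.59 and 2.19 in Hs343T and all passed. For TRIM14, 3 probe sets passed at 2.79, 2.66 and 1.80, while the dimmest, which read 3.77 with siRECK and 3.61 with siSCR, differed by 0.16 (adjusted p = 0.274). Of the TRIM2 probe sets, 3 fell by 1.67, 1.34 and 1.32, and 2 with levels under 5 in both arms differed by 0.02 and 0.05. TRIM33 passed with 3 of its 4, at 1.04, 0.79 and 0.59. In TRIM14, TRIM2 and TRIM33 the probe sets that stayed flat were thus the dimmest of their genes. TRIM27 had 1 probe set that fell (-0.57, adjusted p = 0.00233) beside 2 that did not pass, so its call depends on the probe set. Its probe sets did not divide by level: the mean with siSCR was 8.43 for the one that fell and 9.78 and 7.93 for the others. In Hs606T 1 of the 4 TRIM14 probe sets passed.

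**Figure D4:**
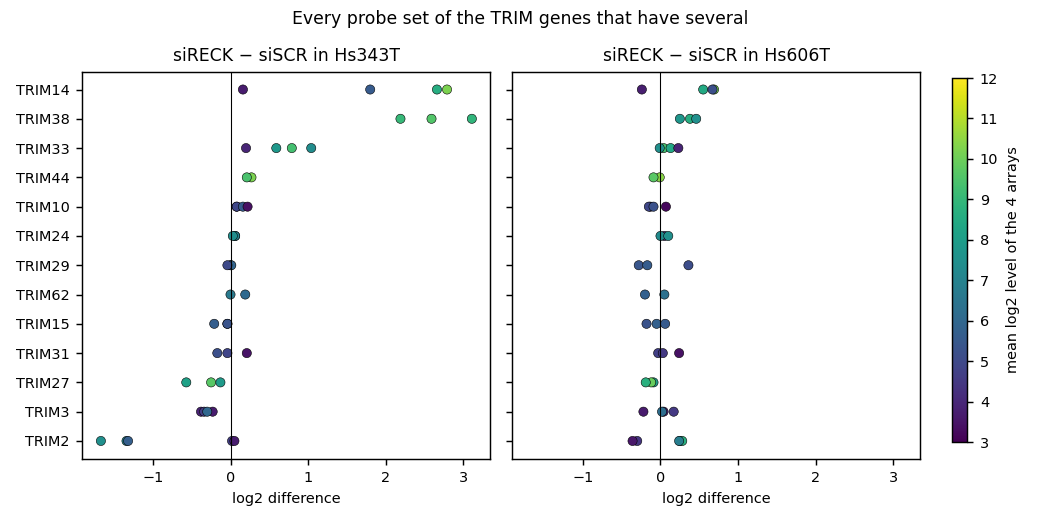
Log2 difference, arrays labelled siRECK minus siSCR, of every probe set of the 13 TRIM genes that have several, in Hs343T (left) and Hs606T (right), coloured by the mean log2 level over the 4 arrays. In the TRIM14, TRIM33 and TRIM2 rows of the left panel the darkest, dimmest points lie nearest 0.

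The genes around the TRIM ligases were counted from lists. Over all genes 12% were higher and 17.5% lower in Hs343T, and 0.853% higher and 0.385% lower in Hs606T. Of 4 tripartite-motif genes with other names, 3 were higher in Hs343T: PML, the scaffold of nuclear bodies, by 1.99 (SE 0.13; adjusted p = 1.58e-07), and MID1 and MID2, microtubule-associated ligases, by 1.5 and 1.22. None passed in Hs606T, where PML differed by 0.35 (adjusted p = 0.291). In the RIG-I-like receptor pathway 8 of 12 genes were higher and 2 lower in Hs343T. RIGI, the sensor that TRIM25 modifies, read 13.27 and 13.22 with siRECK, against 6.88 and 6.94 with siSCR, and IFIH1, which encodes MDA5, differed by 7.69 (SE 0.17; adjusted p = 1.36e-11). The 2 lower genes were MAVS, the adaptor of both sensors, by -0.54 (SE 0.11; adjusted p = 0.00242) and TRAF3, a signalling adaptor downstream of it, by -1.13 (SE 0.11; adjusted p = 6.35e-06). TRAF6, another adaptor of the list, was higher by 0.70 (SE 0.09; adjusted p = 8.08e-05), and TANK differed by 0.15 (adjusted p = 0.549). In Hs606T 3 of the 12 were higher, RIGI by 1.97, IFIH1 by 1.57 and IRF7 by 1.03, and none was lower.

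IFNB1, which encodes interferon beta, had responses that differed by -8.25 between the lines (SE 0.16; adjusted p = 3.51e-11). It read 12.80 and 12.73 on the Hs343T siRECK arrays, against 4.30 and 4.22 on the siSCR arrays. In Hs606T it read 4.21 and 4.33 with siRECK and 3.87 and 4.15 with siSCR (difference 0.26; adjusted p = 0.411). IRF9, the DNA-binding subunit of the interferon-activated complex, was higher in both lines, by 2.11 (SE 0.12; adjusted p = 4.33e-08) in Hs343T and by 0.79 (SE 0.12; adjusted p = 0.0057) in Hs606T. Of the 7 measured genes of interferon ligand, receptors and that complex, 4 were higher in Hs343T and 1, IRF9, in Hs606T. Over all genes 12% were higher in Hs343T and 0.853% in Hs606T.

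Of 12 partners of the chromatin cofactors, 2 were higher and 4 lower in Hs343T, where 12% of all genes were higher and 17.5% lower. None passed in Hs606T, where 1.24% of all genes did. SMAD4, the target of TRIM33, was higher by 0.38 (SE 0.09; adjusted p = 0.00787), as was ATF7IP, a cofactor of the SETDB1 methyltransferase, by 0.87. SMAD3 was lower, with a difference of -1.74 (SE 0.17; adjusted p = 6.83e-06), and so were the heterochromatin proteins CBX5 and CBX3, at -1.28 and -0.61, and the deacetylase HDAC2, at -0.42.

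The RECK construct moved few TRIM genes in the invasive lines. In MDA-MB-231 limma called no member, where 0.309% of all genes passed (0.242% higher and 0.0669% lower), and 3 members had an unadjusted p under 0.05 (TRIM9, TRIM52 and TRIM37, with differences of 0.30, 0.33 and 0.22), as had 11.6% of all genes. In LM24175 2 members were higher and none lower (6.06%), where 6.61% of all genes passed (3.4% higher and 3.21% lower), so the family's share is near that of all genes. At least 1.5-fold as well, TRIM9 alone passed, against 2.88% of all genes. TRIM9, a brain ligase of netrin-guided axon growth, read 5.71 and 5.48 with the construct, against 4.57 and 4.55 with empty vector, 2.04-fold higher (1.72 to 2.42; adjusted p = 4.17e-04). In MDA-MB-231 it read 5.01 and 4.82 with the construct and 4.55 and 4.69 with empty vector. The groups were apart in both lines, as for 17 of the 33 members in LM24175 and 11 in MDA-MB-231, where none passed. Such separation was not counted over all genes. TRIM9 lay below the lower quartile on some arrays. The response was larger in LM24175 by 0.73 (SE 0.16; adjusted p = 0.0296), the 1 member of the 33 for which the construct responses differed, where 3.66% of all genes passed (2.95% with at least 1.5-fold as well). That contrast was lost when the first MDA-MB-231 empty-vector array and the first LM24175 construct array were both left out (0.071), without either LM24175 empty-vector array (0.0961 and 0.106), without either MDA-MB-231 construct array (0.051 and 0.0833), without the first LM24175 construct array (0.105) and in a fit of the compared arrays alone (0.133).

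TRIM68 was the other member higher with the construct in LM24175, at 8.51 and 8.33 against 7.94 and 7.94 with empty vector, 1.40-fold higher (1.19 to 1.65; adjusted p = 0.0198). Without the first construct array it no longer passed (0.138), nor without either empty-vector array (0.119 and 0.125) or without the pair of arrays that deviated together (0.0938). In MDA-MB-231 TRIM68 read 8.90 and 8.76 with the construct and 8.71 and 8.81 with empty vector, and the groups overlapped. By the selected probe set of each, the 7 antiviral genes that rose in Hs343T had construct differences between -0.25 and 0.29 in the invasive lines, and none passed. Another TRIM14 probe set read lower with the construct in MDA-MB-231, at 6.96 and 7.65 against 8.17 and 8.10 with empty vector. In LM24175 that probe set read 8.32 and 8.27 with the construct and 8.25 and 8.27 with empty vector.

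With empty vector, LM24175 differed from MDA-MB-231 in 8 TRIM genes (24.2%), 3 higher and 5 lower, where 20.7% of all genes passed (9.84% higher and 10.9% lower). At least 1.5-fold as well, 3 passed, against 9.56% of all genes. TRIM22 had the largest difference, with 6.41 and 6.63 in LM24175 against 7.17 and 8.12 in MDA-MB-231 (-1.13, -1.71 to -0.54; adjusted p = 0.0105). Its MDA-MB-231 arrays had an SD of 0.68, and without the second of them the difference was -0.65 and the call was lost (0.076). It was also lost without the first LM24175 empty-vector array (-1.02; 0.0798) and with the compared arrays alone (0.0852). TRIM8, a ligase that modulates inflammatory signalling, read 10.17 and 10.33 in LM24175 and 10.88 and 11.30 in MDA-MB-231 (-0.83; adjusted p = 0.00131), and TRIM68 7.94 and 7.94 in LM24175 and 8.71 and 8.81 in MDA-MB-231 (-0.82; adjusted p = 2.13e-04). These 3 genes did not overlap between the lines, which was not counted over all genes. TRIM38 (-0.58) and TRIM62 (-0.52) were the other lower members, and TRIM14 (0.48), TRIM2 (0.45) and TRIM32 (0.33) were higher. With the mean of all probe sets the differences were 0.15 for TRIM14 (limma adjusted p = 0.398), 0.18 for TRIM2 (0.17) and -0.48 for TRIM38 (0.0567). None of these lower or higher members passed with only the compared arrays (0.0723 to 0.176). The number that passed fell to 2 without the first LM24175 empty-vector array, 4 without the second, and 5 without the second MDA-MB-231 empty-vector array.

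With siSCR, Hs606T differed from Hs343T in 15 members (45.5%), 7 higher and 8 lower, where 36.7% of all genes passed (18.4% higher and 18.3% lower). At least 1.5-fold as well, 7 passed, against 18.1% of all genes. TRIM58, a ligase of red cell precursors, read 2.89 and 3.02 in Hs606T, against 5.78 and 5.40 in Hs343T, 6.21-fold lower (5.12 to 7.54; adjusted p = 2.80e-08). Hs343T was the only line in which TRIM58 read above 4, on all 4 of its arrays, 5.78 and 6.01 with siRECK among them. Besides TRIM22, TRIM14 and TRIM21, the higher members in Hs606T were TRIM37 (0.53), TRIM33 (0.39), TRIM32 (0.35) and TRIM44 (0.30). The lower ones were, after TRIM58, TRIM16 (-0.69), TRIM28 (-0.63), TRIM31 (-0.59), TRIM46 (-0.56), TRIM66 (-0.39), TRIM62 (-0.38) and TRIM13 (-0.27). TRIM66 was lost after quantile normalization (limma adjusted p = 0.0708), with another variance model (0.0557) and with the replicate block (0.0535). With only the compared arrays TRIM62 (0.0568) and TRIM13 (0.051) were lost, and TRIM62 also with the mean of its probe sets (0.0729). Without the first Hs606T siSCR array 9 of the 15 remained past the threshold.

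The invasive lines with empty vector differed from the poorly invasive lines with siSCR in 30 members (90.9%), 17 higher and 13 lower, where 72.6% of all genes passed (34.2% higher and 38.5% lower). With a change of at least 1.5-fold asked as well, 11 passed, against 38.2% of all genes. Line kind and kind of control cannot be told apart in this comparison. Among the lower members TRIM10, TRIM17, TRIM24, TRIM31, TRIM46 and TRIM66 no longer passed after quantile normalization (limma adjusted p 0.0647 to 0.316), so those calls depend on the normalization. TRIM36 read 8.0 and 8.15 in LM24175 and 7.97 and 7.93 in MDA-MB-231, against 3.19 and 3.73 in Hs606T and 3.70 and 3.66 in Hs343T, 21.7-fold higher in the invasive lines (17.5 to 27.0; adjusted p = 3.79e-11). TRIM22 was the reverse, 10.3-fold lower (7.76 to 13.8; adjusted p = 6.96e-09), in the order LM24175, MDA-MB-231, Hs343T, Hs606T from low to high. TRIM16 was 3.74-fold higher (3.08 to 4.53) in the invasive lines and TRIM28 2.53-fold (2.29 to 2.80), and TRIM33 differed by 1.11. TRIM24 was lower by its selected probe set (-0.29) and higher when the 2 other probe sets, marked as prone to cross-hybridisation, were averaged in (0.70; adjusted p = 3.81e-07), so its direction depends on the probe set.

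**Figure D5:**
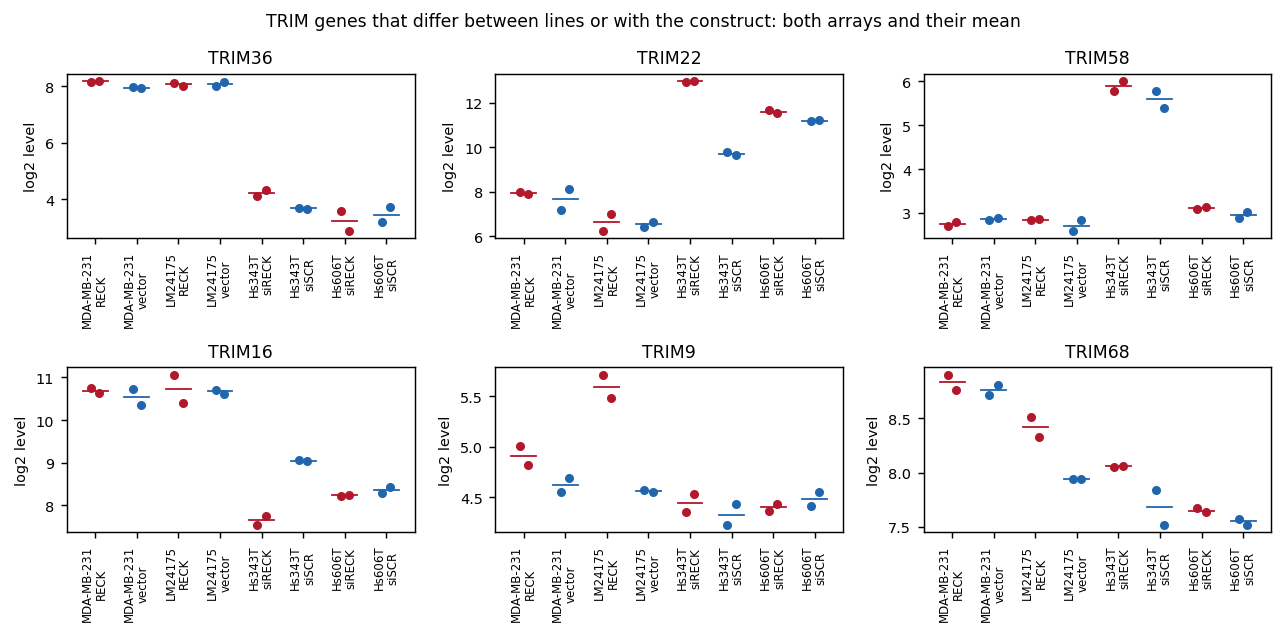
Log2 level of 6 TRIM genes that differed between lines or with the construct, on both arrays of each group (points) with the group mean (bars); red points are RECK construct or siRECK arrays, blue points empty-vector or siSCR arrays, and each panel has its own scale. TRIM36 lies near 8 in the invasive lines and under 5 in the others, TRIM58 is above 5 only in Hs343T, and the LM24175 construct arrays stand highest in the TRIM9 panel.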

How the data were processed

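The values deposited by the authors are log2 levels, 1 per probe set on each array. The authors imported the scanner files into Partek, per the submitters' processing notes, and the summarisation method is not given in the sources used here. Each of 16 arrays in 8 groups was mapped by its title. Control probe sets (62) were left out. Of the rest, 19064 had 1 gene symbol in the platform annotation, 1043 several and 2108 were unlisted. Each gene was read from its probe set with the highest mean, those ending in _x_at only where no other existed (460 genes).

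A limma fit (version 3.58.1, R 4.3.3) of 8 group means gave 2-sided p-values, Benjamini-Hochberg adjusted over 11963 genes. An adjusted p under 0.05 passes. With 8 residual and 3.76 prior degrees of freedom, the median residual SD was 0.129, and the number of arrays limits the precision. Differences are on the log2 scale, and folds are 2 raised to them, each with its 95% interval. The scripts were tested on simulated data.

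Every TRIM gene that passed in an siRNA comparison is named. Array values are given for those higher in both siRNA lines, those whose responses differ and those that passed with the construct. RECK, IFNB1, IRF9, PML, RIGI and MAVS are named whatever their values. Other array values given were chosen after the values were seen. Role, pathway and marker lists, and the members themselves, were chosen with earlier results of these data known. Promoters come from RefSeq. The alternatives tried are normalization, probe set choice, a dim gene filter, variance model, arrays in the fit, replicate block, a 1.5-fold minimum and leaving out arrays.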

Additional observations from a re-analysis of the deposited data

Results flagged for a closer look

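The siRNA responses of Hs606T and Hs343T differed, by limma's test of the difference itself, for 13 TRIM genes. On the log2 scale, Hs606T minus Hs343T, the contrast was -3.16 for TRIM21, -2.85 for TRIM22, -2.21 for TRIM38, -2.2 for TRIM5, -2.18 for TRIM26, -2.11 for TRIM14, -1.66 for TRIM25 and -0.75 for TRIM33, each with a smaller response in Hs606T. It was 1.95 for TRIM2, 1.27 for TRIM16, 0.89 for TRIM46, 0.69 for TRIM37 and 0.45 for TRIM32, genes that fell in Hs343T and did not pass in Hs606T. The construct responses of LM24175 and MDA-MB-231 differed for TRIM9, by 0.73.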

How the results depend on the processing

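Every count below is of TRIM genes that passed. With only the arrays of a comparison in the fit, Hs606T siRNA had 0, both siRNA lines together 0, the LM24175 construct 1, the contrast of construct responses 0 and LM24175 against MDA-MB-231 2. With at least 1.5-fold asked as well, the LM24175 construct had 1, LM24175 against MDA-MB-231 3, Hs606T against Hs343T 7 and invasive against poorly invasive lines 11. LM24175 against MDA-MB-231 had 5 with the mean of all probe sets. The contrast of construct responses had 0 without the dimmest 25% of genes and 0 without the 2 arrays that deviate together. With 1 array left out, the counts ranged from 11 to 17 for Hs343T siRNA, 0 to 3 for Hs606T siRNA, 0 to 3 for both, 12 to 15 for the contrast of siRNA responses, 0 to 0 for the MDA-MB-231 construct, 1 to 2 for the LM24175 construct, 0 to 2 for the contrast of construct responses, 2 to 7 for LM24175 against MDA-MB-231, 9 to 16 for Hs606T against Hs343T and 27 to 31 for invasive against poorly invasive lines; a lone array was assumed to vary like the other groups. TRIM24 turned from -0.29 to 0.7 with the mean of its probe sets and to 1.24 with _x_at probe sets allowed in the last comparison. Fewer arrays or genes entered the fits that leave some out; otherwise the cause was not tested. Of 2248 values for 87 named genes and comparisons, 2050 kept direction and side of the threshold, 196 lost the call and 2 reversed.

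The replicate numbers did not pair the arrays: of 28 pairs of groups 1 had a correlation of deviations over 0.1 (range -0.121 to 0.482). With the replicate block 16 TRIM genes passed for siRNA in Hs343T and 3 in Hs606T, and it moved no count by over 1.5 times.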
